A study of Sus scrofa with 4 samples.

Results

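The Sprouty genes SPRY1, SPRY2 and SPRY4, the Sprouty-related genes SPRED1, SPRED2 and SPRED3, the ETS transcription factor genes ETV1, ETV4 and ETV5 and the receptor gene IL17RD were followed in porcine induced pluripotent stem cells in which LIN28A was knocked down. These 10 genes were taken by symbol from a table of 16026 genes, and each symbol stood on a single row. RNA was sequenced from 2 LIN28A knockdown libraries, labelled shLin28a, and 2 libraries labelled Negative Control. All 4 came from induced pluripotent stem cells, somatic cells reprogrammed to an embryo-like state, of the Bamei black pig, a Chinese breed, with a development stage given as 26.5 d. LIN28A binds RNA in early embryonic cells and keeps let-7 microRNAs from maturing. The labels leave unsaid whether both knockdown libraries carry 1 hairpin or different ones, whether the cells are 1 clone, and whether libraries of the same group were grown separately. The p-values below therefore reflect library-to-library spread that may be technical. The series title names DUSP phosphatases and MAPK signalling, and the comparison asks how other genes of the ERK feedback circuit stood when LIN28A was reduced.

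Fibroblast growth factors (FGFs) bind receptor tyrosine kinases that switch on RAS, which activates the kinases RAF, MEK and ERK in turn. ERK induces its own inhibitors: Sprouty and SPRED proteins act between the receptor and RAF, SPRED proteins bring the RAS GTPase activator neurofibromin to the membrane, and IL17RD, also known as SEF, is a membrane protein that restrains FGF signalling. ETV1, ETV4 and ETV5 form the PEA3 group of ETS factors and are transcribed in embryonic tissues where FGF signals are received, so transcripts of all of these families are widely read as a record of ERK activity. In mouse pluripotent cells, FGF and ERK signalling promotes exit from the naive state.

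Summed expected counts were 8061417 in knockdown 1, 2400985 in knockdown 2, 11847343 in control 1 and 7125640 in control 2, a range of 4.93-fold. LIN28A itself was at 3.14 and 2.58 FPKM (fragment counts relative to transcript length and sequencing depth) in the knockdown libraries, against 32.62 and 17.23 in the controls. Its log2 fold change was −2.92 ± 0.49 (SE), with an edgeR adjusted p of 0.259 and a DESeq2 adjusted p of 0.00855. Of markers of pluripotent cells, POU5F1 and SOX2 were present in every library at 16.6 FPKM or more, while NANOG, on 2 rows of the table, did not exceed 0.70 FPKM and ESRRB did not exceed 0.03 FPKM. SALL4, a zinc finger factor of the same list, was at 7.71 and 3.25 FPKM in the knockdown libraries and 19.2 and 19.2 FPKM in the controls, and KLF4, a reprogramming factor, at 5.92 and 7.73 FPKM in the knockdown libraries and 3.86 and 2.74 FPKM in the controls. The 8 pluripotency markers in the table, LIN28A among them, summed to 180 and 92.2 FPKM in the knockdown libraries and 205 and 170.0 FPKM in the controls. Nestin (NES), a neural progenitor filament protein, was at 96.4 FPKM or more in every library. Fibroblast markers differed within both groups: the sum over the 12 listed genes was 107.8 and 429 FPKM in knockdown 1 and 2, against 64.6 and 154 FPKM in control 1 and 2. In bulk RNA, fewer cells of a type and less RNA per cell cannot be told apart. FOS, an immediate early gene named here after its values were seen, also separated the libraries within each group, at 308 and 14.9 FPKM in the knockdown libraries and 319 and 25.3 FPKM in the controls.

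SPRY2 and ETV4 had both knockdown libraries above both controls, about 2.07-fold and 1.94-fold by the fit, while the groups overlapped in their paralogues SPRY1 and ETV5. ETV1 had the largest fold change, carried by knockdown 2. IL17RD was the only member lying below both controls in both knockdown libraries, by a narrow margin. Of all tested genes, 18.8% had both knockdown libraries above both controls after normalisation and 22.9% had both below. None of the 10 genes passed the test over all genes in edgeR, where 0 of 11967 tested genes (0%) did. At an unadjusted p under 0.05, 2 members, ETV4 and SPRY2, were higher and none was lower, where 7.71% of all tested genes lay under that p, 4.26% higher and 3.45% lower. DESeq2 called 1.16% of all genes and none of the members, and limma on log2 FPKM called none of the members either. All 10 members passed the filter on low counts, with between 107 and 6601 counts in any library. Their log2 fold changes were positive in 7 and negative in 3, with a median of 0.40, where 51.2% of all tested genes were positive and the median over all was 0.01. The share of positive members depended on scaling, since ETV5 turned negative with upper quartile factors, total counts and log2 FPKM, and SPRED3 with log2 FPKM. Counted against the median of all genes instead of 0, 7 of 10 members lay above it in the main fit and at each of these settings. The exception was log2 FPKM without the filter, with 6. Without knockdown 2 the median of the members was 0.04, without control 1 it was 0.13, and without control 2 it was 0.63.

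**Figure D1:**
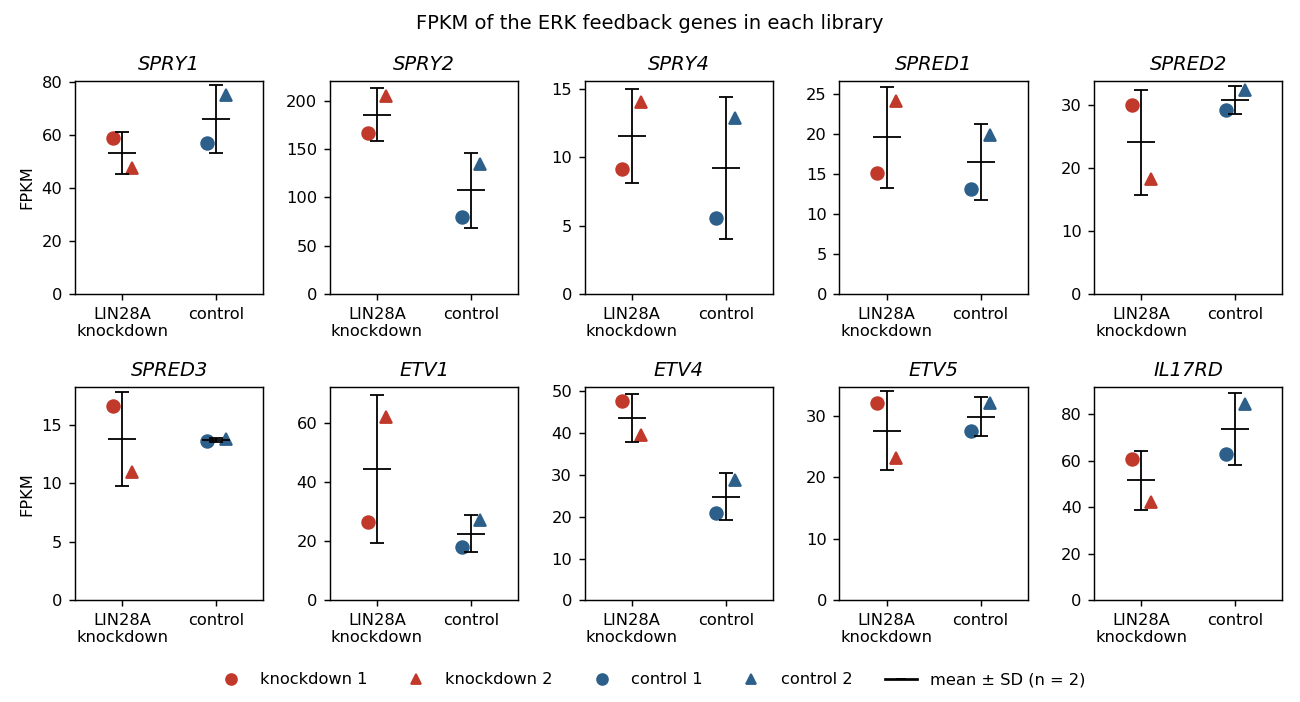
FPKM of each of the 10 genes (vertical axes, starting at 0) in the 2 LIN28A knockdown libraries (left of each panel) and the 2 controls (right), with the mean and SD of each pair. SPRY2 and ETV4 have both knockdown points above both controls and IL17RD has both below, while the points of the other 7 genes overlap.

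The 3 Sprouty genes, which encode the feedback inhibitors that act on adaptors and RAF, did not share a direction. SPRY2, on chromosome 11 at 52153695 to 52158766 of the pig build Sscrofa11.1, had the highest mean FPKM of the members in both groups, at 166 and 205 FPKM in the knockdown libraries and 80.1 and 134 FPKM in the controls. Both knockdown libraries lay above both controls. After TMM normalisation, which corrects for differences in RNA composition, it had 336 and 558 CPM (counts relative to library size, not to transcript length) in knockdown 1 and 2, against 158 and 273 CPM in control 1 and 2. The fit gave a log2 fold change of 1.05 ± 0.41 (SE), with a 95% interval of 0.018 to 2.08, an edgeR unadjusted p of 0.0472 and an adjusted p of 0.606. The 2 controls differed by 0.79 on the log2 CPM scale, where the group means differed by 1.06. Leaving out knockdown 2 gave 0.62, leaving out control 1 gave 0.70, and in both cases the sign was kept.

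SPRY1, on chromosome 8 at 100449476 to 100863780, was at 58.7 and 47.6 FPKM in the knockdown libraries and 56.9 and 74.9 FPKM in the controls. Its groups overlapped. Here the log2 fold change was −0.14 ± 0.28 (SE), with a 95% interval from −0.85 to 0.57 that leaves room for either direction, and the edgeR adjusted p was 0.864. Without control 2 the value was 0.16, and without control 1 it was −0.39. SPRY4, on chromosome 2 at 143877334 to 143891280, had the lowest mean FPKM of the members in both groups, at 9.16 and 14.02 FPKM in the knockdown libraries and 5.57 and 12.9 FPKM in the controls. Its 2 controls differed by 1.25 on the log2 CPM scale, about as far apart as the 2 knockdown libraries at 1.04. The log2 fold change of 0.59 ± 0.53 (SE; edgeR adjusted p 0.706) was −0.016 without knockdown 2 and 0.09 without control 1, so that its sign rested on single libraries. Summed over the 3 genes, Sprouty transcripts amounted to 234 and 267 FPKM in the knockdown libraries and 142 and 222 FPKM in the controls. SPRY2 made up 71.0% and 76.9% of that sum in the knockdown libraries and 56.2% and 60.5% in the controls. The fourth Sprouty gene, SPRY3, was not among the members and was at 0.18 and 0.88 FPKM in the knockdown libraries and 0.44 and 0.30 FPKM in the controls.

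The 3 SPRED genes, whose products carry a Sprouty-like domain and recruit neurofibromin, showed no shared direction. SPRED1, on chromosome 1 at 132903103 to 133016725, was at 15.2 and 24.1 FPKM in the knockdown libraries and 13.2 and 19.9 FPKM in the controls. Knockdown 1 lay between the controls and knockdown 2 above them. Its log2 fold change was 0.62 ± 0.46 (SE; edgeR adjusted p 0.653), and leaving out knockdown 2 turned it to −0.10, leaving out control 1 gave 0.33, and the fits lacking control 2 or knockdown 1 gave 1.01 and 1.10. SPRED1 is the only member with counts that are not whole numbers, in 3 of the 4 libraries, as RSEM gives where it divides reads between genes. SPRED2, on chromosome 3 at 76527646 to 76649652, was at 29.9 and 18.2 FPKM in the knockdown libraries and 29.2 and 32.2 FPKM in the controls. Only knockdown 2 stood apart, and it stood low; the log2 fold change was −0.16 ± 0.23 (SE; edgeR adjusted p 0.799). It was −0.05 without knockdown 2 and −0.32 without knockdown 1.

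SPRED3, on chromosome 6 at 47302211 to 47312034, is the SPRED gene with a mostly neural expression in mice. It was at 16.6 and 10.9 FPKM in the knockdown libraries and 13.6 and 13.8 FPKM in the controls, so that the groups overlapped on this scale. After TMM normalisation the knockdown libraries had 63.0 and 55.9 CPM, against 49.9 and 52.8 CPM in the controls, and both lay above both controls. The fitted log2 fold change was 0.22 ± 0.19 (SE; edgeR adjusted p 0.698). Its sign depended on the scaling, with values of −0.018 and −0.022 in limma on log2 FPKM with pseudocounts of 1 and 0.1. The summed SPRED level was 61.7 and 53.2 FPKM in the knockdown libraries and 55.9 and 65.9 FPKM in the controls, which overlap.

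Among the PEA3 factors, which bind ETS sites and carry FGF signals to target genes, ETV4 had the smallest p of all members. ETV4, on chromosome 12 at 19531507 to 19548303, was at 47.8 and 39.6 FPKM in the knockdown libraries and 20.9 and 28.7 FPKM in the controls. Both knockdown libraries lay above both controls, and control 2 was the higher control. After TMM normalisation it had 119 and 127 CPM in the knockdown libraries and 49.3 and 77.4 CPM in the controls. This amounted to a log2 fold change of 0.96 ± 0.28 (SE), a 1.94-fold difference with a 95% log2 interval of 0.25 to 1.67. Its edgeR unadjusted p was 0.0175, rank 382 among all tested genes, and its adjusted p was 0.541; in DESeq2 the adjusted p was 0.330. The 2 knockdown libraries differed by 0.10 on the log2 CPM scale, and leaving out any 1 library gave values between 0.67 and 1.33.

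ETV1, on chromosome 9 at 83322818 to 83567136, was at 26.6 and 62.1 FPKM in the knockdown libraries and 18.1 and 27.0 FPKM in the controls. Knockdown 1 lay at the level of control 2, and knockdown 2 alone was high. Its log2 fold change of 1.28 ± 0.58 (SE) had an edgeR adjusted p of 0.606. It was 0.22 without knockdown 2. Without knockdown 1 it was 1.89, with an edgeR adjusted p of 0.0388 that passes the threshold, in a fit that assumes the lone knockdown library varies like the controls and that called 1204 genes. ETV5, on chromosome 13 at 123873346 to 123930292, was at 32.2 and 23.1 FPKM in the knockdown libraries and 27.6 and 32.2 FPKM in the controls. The groups overlapped, and the log2 fold change of 0.09 ± 0.22 (SE; 95% interval −0.45 to 0.64; edgeR adjusted p 0.882) was negative under total counts at −0.11. The 3 genes together reached 107 and 125 FPKM in the knockdown libraries and 66.6 and 87.9 FPKM in the controls.

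IL17RD, on the same chromosome as ETV5 at 38935631 to 39006721, had the highest mean log2 CPM of the members over the 4 libraries. It was at 60.5 and 42.4 FPKM in the knockdown libraries and 62.7 and 84.5 FPKM in the controls. Both knockdown libraries lay below both controls, but knockdown 1 only just: after TMM normalisation it had 503 CPM, where control 1 had 508 CPM. Exact Poisson intervals (95%, counting error only) of the CPM before TMM, 522 to 554 in knockdown 1 and 544 to 571 in control 1, overlap. For IL17RD the log2 fold change was −0.31 ± 0.29 (SE), at an edgeR adjusted p of 0.707. It was −0.05 without control 2 and −0.54 without control 1. The 3 tested genes whose centred log2 CPM over the 4 libraries lay nearest to IL17RD were CHMP4A, POLR1C and LOC110255327. Their distances were 0.086 to 0.090, where the median distance over all other tested genes was 0.677.

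**Figure D2:**
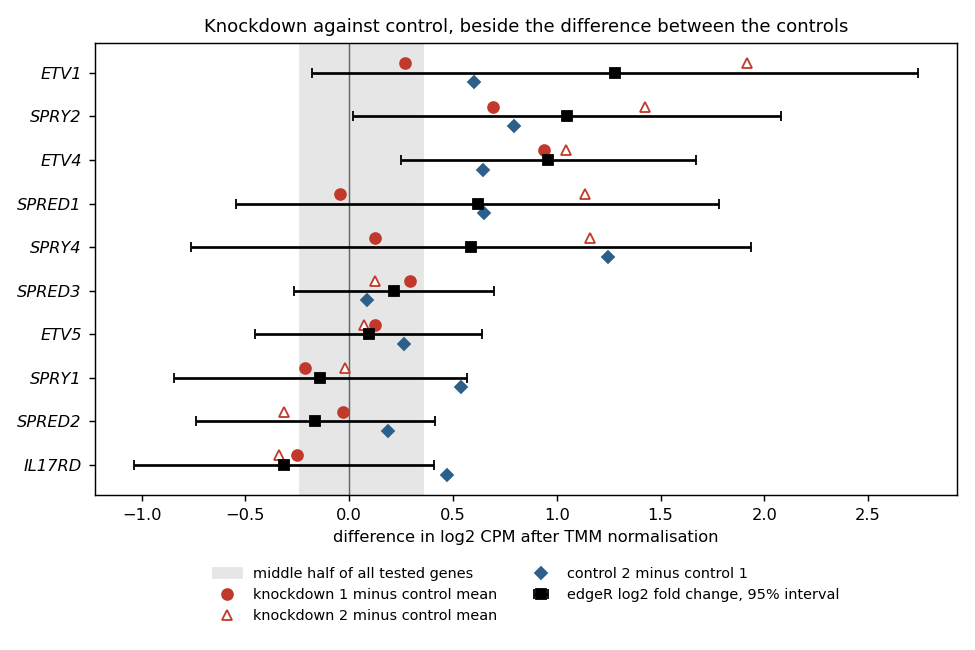
The edgeR log2 fold change of knockdown over control with its 95% interval (black squares) for each member, with each knockdown library minus the control mean (red) and control 2 minus control 1 (blue diamonds), all in log2 CPM after TMM normalisation. The grey band holds the middle 50% of all tested genes; the intervals of SPRY2 and ETV4 alone lie above 0, and the signs of ETV5 and SPRED3 turn under other scalings.

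Set beside the spread within a group, the group difference was larger than the difference between the 2 controls in 4 of the 10 members, SPRY2, ETV1, ETV4 and SPRED3, where it was in 63.4% of all tested genes. On TMM-normalised values, 3 members (SPRY2, SPRED3 and ETV4) had both knockdown libraries above both controls, and IL17RD alone had both below. In all, 4 of 10 members had groups that did not overlap, against 41.7% of all tested genes. Without knockdown 2, the library with the fewest counts and the highest fibroblast marker sum, the same 4 genes did not overlap in the same directions, where 69.2% of all genes then did not. Apart from the refitted scaling this outcome was fixed, since groups that do not overlap stay apart when a library is removed. With upper quartile factors, total counts or FPKM, SPRED3 was no longer among them.

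SPRY4, SPRED1 and ETV1 ordered the 4 libraries exactly as the fibroblast marker sum did: lowest in control 1, then knockdown 1, control 2 and knockdown 2. This order was found in 3 of the 10 members and in 11.4% of all tested genes. Of the 12 fibroblast markers, COL1A1 was at 56.5 and 206 FPKM in the knockdown libraries and 17.6 and 52.8 FPKM in the controls, and COL1A2 at 22.8 and 125 FPKM in the knockdown libraries and 15.2 and 41.6 FPKM in the controls, while DCN was at 0 in both knockdown libraries and COL6A3 and LUM stayed under 1 FPKM in every library. THY1, a surface protein with the smallest p of this list, ran the other way, at 3.38 and 5.80 FPKM in the knockdown libraries and 9.79 and 7.89 FPKM in the controls. The order was shared by 5 of the 9 tested fibroblast markers, COL1A2, COL3A1, COL5A1, POSTN and PDGFRB, but not by COL1A1. The order of the sum depended on which markers were counted. Without COL1A1 and COL1A2, a choice made after seeing the data, the other 10 markers amounted to 28.4 and 97.9 FPKM in knockdown 1 and 2. In control 1 and 2 they amounted to 31.9 and 59.2 FPKM, which puts knockdown 1 lowest, just below control 1. No member had that order, where 4.86% of all tested genes had. The part of these cells in the values of SPRY4, SPRED1 and ETV1 was not tested. SPRY2 and ETV4 did not follow the order of the full sum, and knockdown 1 lay above control 2 in both. On TMM-normalised values they rose from control 1 through control 2 and knockdown 1 to knockdown 2. COL1A1 and COL6A2 had that order in FPKM, COL6A2 at 3.29 and 8.24 FPKM in the knockdown libraries and 1.19 and 2.47 FPKM in the controls. Of the 9 tested fibroblast markers, these 2 lay above both controls in both knockdown libraries, and THY1 below. The part of fibroblasts in SPRY2 and ETV4 was not tested either. Some markers of other cell types lay apart between the groups, as SPRY2, ETV4 and IL17RD did. Of 7 tested neural markers, 5 had both knockdown libraries above both controls on TMM-normalised values, against 18.8% of all tested genes. At an unadjusted edgeR p under 0.05, 4 were higher, against 4.26% of all tested genes. NEUROD4, a neuronal transcription factor with the smallest p among them, was at 10.03 and 9.38 FPKM in the knockdown libraries and 2.08 and 2.79 FPKM in the controls. DCX, a microtubule protein of young neurons, was at 22.2 and 10.4 FPKM in the knockdown libraries and 7.14 and 6.09 FPKM in the controls. PAX6 had overlapping groups and a log2 fold change of −0.21. It was at 14.3 and 7.72 FPKM in the knockdown libraries and 19.2 and 10.5 FPKM in the controls. ELAVL3 overlapped as well, at 58.1 and 25.2 FPKM in the knockdown libraries and 35.5 and 29.6 FPKM in the controls. The sum of the 8 neural markers in the table, most of it NES, overlapped, at 475 and 205 FPKM in the knockdown libraries and 241 and 175 FPKM in the controls, and SOX1 was at 0 in every library. The trophectoderm and endoderm sums were lower after knockdown, with no overlap: 5 trophectoderm markers summed to 5.95 and 3.61 FPKM in the knockdown libraries and 24.0 and 49.4 FPKM in the controls, and 4 endoderm markers to 21.0 and 26.0 FPKM in the knockdown libraries and 66.7 and 84.1 FPKM in the controls. Each sum was mostly 1 gene: KRT8 in the trophectoderm sum of the controls, and APOA1 in the endoderm sum of every library. APOA1 was at 18.4 and 23.1 FPKM in the knockdown libraries and 56.9 and 71.5 FPKM in the controls. KRT8, a keratin of simple epithelia, was at 1.11 and 1.85 FPKM in the knockdown libraries and 14.5 and 38.9 FPKM in the controls. COL4A2, a basement membrane collagen, was at 1.82 and 2.77 FPKM in the knockdown libraries and 9.65 and 12.5 FPKM in the controls. Of the transcription factors on these lists, FOXA2 and SOX17 were not found by symbol, and GATA4 and TFAP2C did not exceed 0.06 FPKM. CDX2 was at 0.42 and 0 FPKM in the knockdown libraries and 0.95 and 3.70 FPKM in the controls. GATA3 overlapped, at 4.09 and 1.76 FPKM in the knockdown libraries and 6.29 and 2.36 FPKM in the controls. GATA6 ran the other way, at 0.72 and 0.14 FPKM in the knockdown libraries and 0.12 and 0.10 FPKM in the controls. The 5 blood markers summed to 5.33 and 15.2 FPKM in the knockdown libraries and 3.56 and 5.07 FPKM in the controls. Of the 4 tested, only CORO1A did not overlap, at 1.29 and 4.29 FPKM in the knockdown libraries and 0.93 and 0.91 FPKM in the controls. CD68 overlapped, at 2.06 and 0.38 FPKM in the knockdown libraries and 1.64 and 1.29 FPKM in the controls. LCP1 was at 0 in knockdown 1 and control 1, and PTPRC did not exceed 0.08 FPKM. None of these markers passed the edgeR test over all genes, as no gene of the table did. NEUROD4 was among the 1.16% of all tested genes that DESeq2 called, at a DESeq2 adjusted p of 8.8e-05. The part of such cells in the values of SPRY2, ETV4 and IL17RD was not tested.

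Ratios between paralogues within a library do not depend on how libraries are scaled to each other. The ratio of SPRY1 to SPRY2 was 0.353 and 0.232 in the knockdown libraries and 0.710 and 0.557 in the controls, a mean log2 difference of −1.14. ETV4 to ETV5 stood at 1.49 and 1.71 in the knockdown libraries and 0.755 and 0.893 in the controls, a mean log2 difference of 0.96. ETV5 was thus the more abundant of the pair in both controls and ETV4 in both knockdown libraries. The ratio of SPRY2 to SPRY4 was 18.1 and 14.6 in the knockdown libraries against 14.4 and 10.4 in the controls, and that of SPRED2 to SPRED3 was 1.80 and 1.66 in the knockdown libraries against 2.14 and 2.34 in the controls. These 4 of 9 ratios had groups that did not overlap, where 42.8% of the ratios between all pairs of tested genes above 0 FPKM did not. The other 5 overlapped, among them ETV1 to ETV5, at 0.828 and 2.69 in the knockdown libraries against 0.654 and 0.840 in the controls. With 2 libraries against 2, an exact two-sided permutation test cannot go below p = 0.333, so no ratio could pass it.

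**Figure D3:**
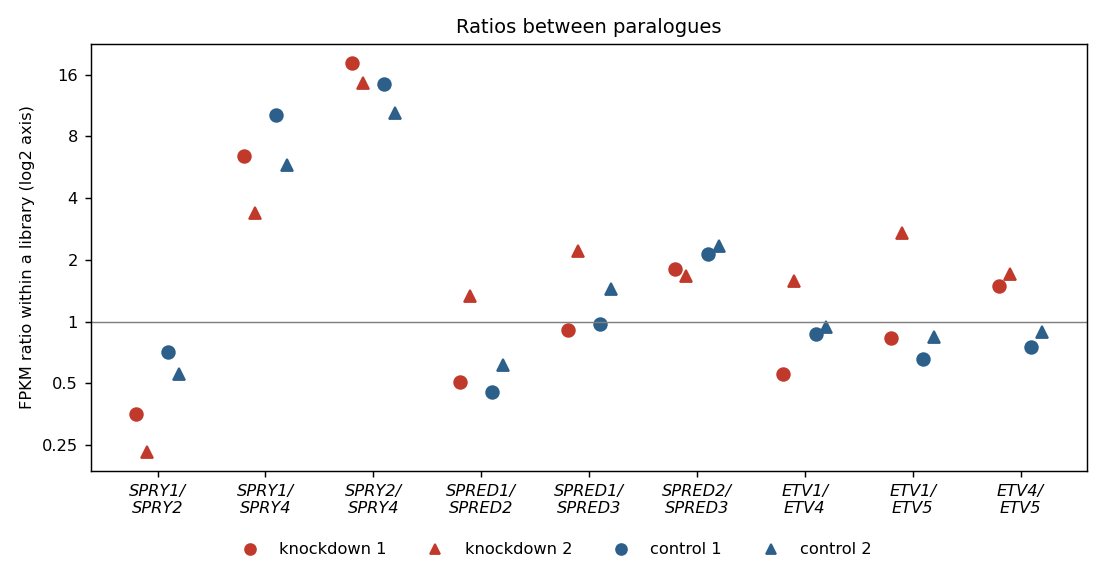
FPKM ratio of each pair of paralogues within a library (log2 axis), with the 2 knockdown libraries in red on the left of each pair of groups and the 2 controls in blue on the right. For SPRY1/SPRY2 both red points lie under both blue points, and ETV4/ETV5 lies above 1 in both knockdown libraries and below 1 in both controls.

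In the order of mean levels per unit of length, ETV1 and ETV4 stood above ETV5 and SPRED2 in the knockdown libraries and below them in the controls. For ETV1 this rested on knockdown 2: in knockdown 1 it was at 26.6 FPKM, below ETV5 at 32.2 and SPRED2 at 29.9 FPKM. In the knockdown libraries, mean FPKM ran from SPRY2 (185.6 ± 27.5, SD, n = 2) through SPRY1 (53.1 ± 7.83), IL17RD (51.5 ± 12.8), ETV1 (44.4 ± 25.1), ETV4 (43.7 ± 5.83), ETV5 (27.6 ± 6.42), SPRED2 (24.0 ± 8.29), SPRED1 (19.6 ± 6.30) and SPRED3 (13.8 ± 4.03) down to SPRY4 (11.6 ± 3.44). Neighbours in that order were separate in range only between SPRY2 and SPRY1 and between ETV4 and ETV5. In the controls it ran from SPRY2 (107 ± 38.4, SD, n = 2) through IL17RD (73.6 ± 15.4), SPRY1 (65.9 ± 12.7), SPRED2 (30.7 ± 2.17), ETV5 (29.9 ± 3.20), ETV4 (24.8 ± 5.56), ETV1 (22.6 ± 6.33), SPRED1 (16.5 ± 4.76) and SPRED3 (13.7 ± 0.141) down to SPRY4 (9.22 ± 5.17). There, neighbours were separate only between SPRY1 and SPRED2 and between SPRED3 and SPRY4.

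The rest of the pathway was read from lists that hold no member. No gene of these lists passed the edgeR test over all genes, as none did in the whole table. The ERK phosphatases, feedback enzymes like the Sprouty proteins but acting on ERK itself, had 4 tested genes, all with a positive log2 fold change and a median of 0.81. DUSP6, the one with the smallest p, was at 147 and 96.3 FPKM in the knockdown libraries and 68.0 and 58.7 FPKM in the controls, and its log2 fold change was 1.14 ± 0.24 (SE; edgeR adjusted p 0.336). Upstream, the FGF receptors and their co-receptors had 3 of 4 tested genes positive, with a median of 0.24; FGFR3 had the smallest p, at 0.18 and 0 FPKM in the knockdown libraries and 0.52 and 0.62 FPKM in the controls. Of the FGF ligands, 5 of 9 tested genes were positive (median 0.40), and FGF11, an intracellular member of the family, was at 13.4 and 6.77 FPKM in the knockdown libraries and 17.8 and 14.2 FPKM in the controls.

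Adaptors and kinases from the receptor to ERK were positive in 16 of 19 tested genes, with a median of 0.25. GRB2, the adaptor that brings the exchange factor SOS to the receptor and that Sprouty proteins can bind, was at 81.4 and 116 FPKM in the knockdown libraries and 68.5 and 66.5 FPKM in the controls (edgeR adjusted p 0.606). RAS GTPase activators and partners of Sprouty and SPRED proteins were positive in 12 of 13 tested genes, with a median of 0.35; TESK1, a kinase that binds Sprouty proteins, was at 18.7 and 17.9 FPKM in the knockdown libraries and 16.6 and 14.3 FPKM in the controls. The regulators of the PEA3 factors, the repressor CIC with its cofactors and the COP1 ubiquitin ligase with its partners, were positive in 7 of 9 tested genes (median 0.24). COP1, which marks PEA3 proteins for degradation, was at 36.2 and 117 FPKM in the knockdown libraries and 23.6 and 41.3 FPKM in the controls, with knockdown 2 far above the rest. The other ETS factors were positive in 12 of 13 tested genes (median 0.32), with ELF4 at 4.34 and 2.29 FPKM in the knockdown libraries and 2.65 and 2.34 FPKM in the controls. Among 13 early and growth genes induced by ERK, 9 were positive, with a median of 0.38. Some of them, like FOS, differed far more within each group than between groups. EGR1 was at 769 and 107 FPKM in the knockdown libraries and 575 and 166 FPKM in the controls. EGR2 was at 39.5 and 1.45 FPKM in the knockdown libraries and 40.6 and 2.27 FPKM in the controls. On TMM-normalised values 2 of the 13 lay above both controls in both knockdown libraries and 2 below, against 18.8% and 22.9% of all tested genes. Of the 13 genes, IER5 had the smallest p, at 74.6 and 52.4 FPKM in the knockdown libraries and 37.1 and 37.0 FPKM in the controls, or 0.98 ± 0.20 (SE) as a log2 fold change (edgeR adjusted p 0.327).

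The medians of the ERK phosphatases, the CIC and COP1 list and the other ETS factors were positive at every setting tried, while those of 5 lists turned negative at some. Even so, without knockdown 2 the other ETS factors were positive in 7 of 13 genes, with a median of 0.084, and the CIC and COP1 list had a median of 0.087; on log2 FPKM the median of the CIC and COP1 list was 0.0093 to 0.011. With total counts, only 9 of 19 genes from receptor to ERK were positive, with a median of −0.0059. The median of all tested genes was −0.18 at that setting, and 16 of the 19 lay above it, as 16 did in the main fit. The FGF receptors had a median of −0.72 when every gene with at least 1 count was kept and of −0.016 to −0.093 on log2 FPKM. In each of the log2 FPKM fits the median of all genes was lower still. Without knockdown 2 the median was −0.14 for the FGF receptors, −0.36 for the FGF ligands, −0.049 for the RAS GTPase activators and partners and −0.0011 for the genes from receptor to ERK. The early and growth genes had a median of −0.61 without knockdown 1 and −0.22 without control 2, against 0.99 without knockdown 2 and 1.52 without control 1.

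**Figure D4:**
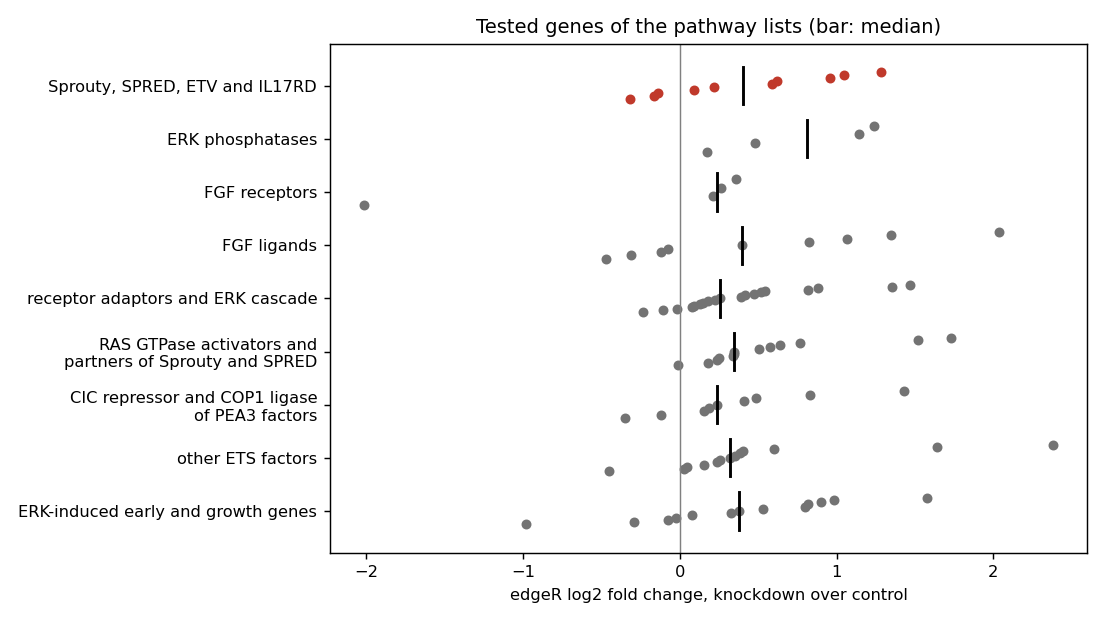
The edgeR log2 fold change of knockdown over control (horizontal axis) for each tested gene of the lists, with the median of each list as a black bar; the Sprouty, SPRED, ETV and IL17RD genes are in red at the top, where ETV5 and SPRED3 turn negative under other scalings. The medians of the lists lie between 0.24 and 0.81 on this scale. Under total counts the median of the genes from receptor to ERK is just below 0, and on log2 FPKM that of the FGF receptors is. At these settings the median of all tested genes is lower still.

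**Figure D5:**
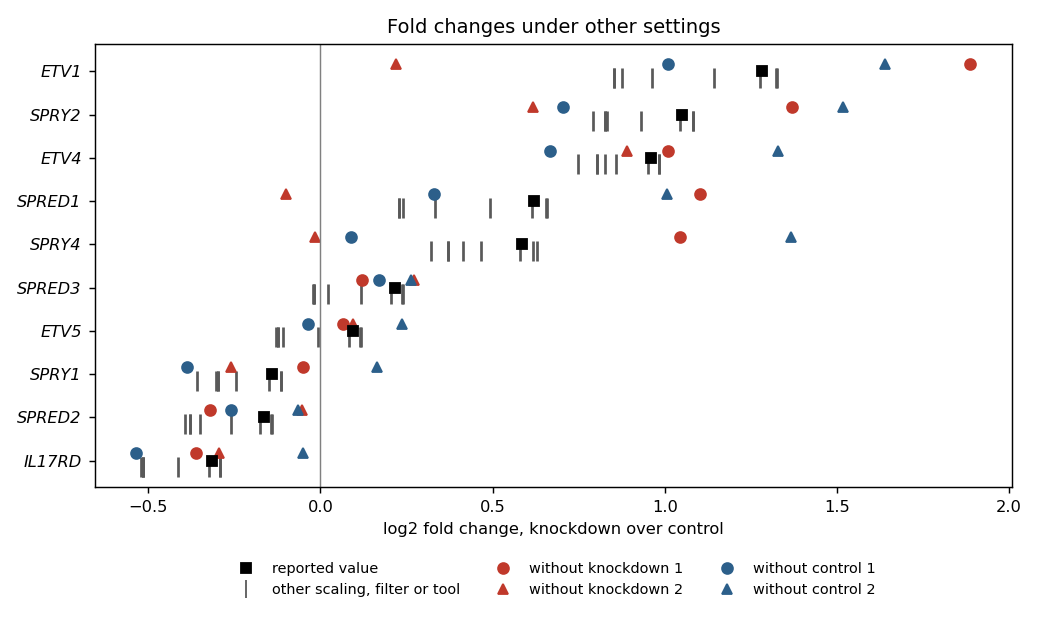
The log2 fold change of knockdown over control of each member (horizontal axis) as reported (black squares), under other scalings, filters or tools (grey ticks) and without each library in turn (coloured points). SPRY2, ETV1 and ETV4 stay above 0 and SPRED2 and IL17RD below it at every setting drawn, while the values of SPRY1, SPRY4, SPRED1, SPRED3 and ETV5 lie on both sides of 0.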

How the data were processed

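Polyadenylated RNA was sequenced on the BGISEQ-500 after RNAiso Plus extraction, per the labels' protocols. The tools named are Bowtie2 and RSEM 1.2.12, on the build Sscrofa11.1, per the submitters' processing notes. Strandedness is not given in the sources used here, so reads of overlapping genes may not be separated (SPRY1, SPRED1 and ETV1 overlap another RefSeq entry). The deposited expected counts are RSEM estimates, not normalised between libraries. The other deposited values are read as FPKM: for the single-exon genes FZD2, GAS1 and EID1, with an effective length 200 bases below gene length, they imply library totals 1.03 to 1.04 times the summed counts. Gene positions are RefSeq's.

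Expected counts were rounded and tested over the whole table with edgeR 4.0.16 (R 4.3.3; TMM factors 1.07 and 0.798 for the knockdown libraries and 1.10 and 1.07 for the controls; filterByExpr left 11967 genes; quasi-likelihood test, two-sided, no covariate, Benjamini-Hochberg threshold 0.05), on 2 residual degrees of freedom plus 3.30 shared across genes. A covariate for fibroblast RNA was not fitted. Log2 CPM uses a prior count of 2. A count of 3, the floor for a gene at 0, was 0.253 to 1.25 CPM. DESeq2 1.42.0, limma 3.58.1 on log2(FPKM + 1), other scalings, no filter and leaving out each library were alternatives. The code was tested on simulated counts. Library numbers come from the sample titles, and the labels do not say whether libraries of the same number were handled together. In both groups FOS was lower, and the fibroblast marker sum higher, in number 2 than in number 1. No pairing by number was fitted, and a shared batch was not tested. All members were described; of each pathway list, the gene with the smallest p was named, besides 3 genes nearest in pattern; marker genes were named after their values were seen. Members and lists were chosen with earlier results of these data known.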

Additional observations from a re-analysis of the deposited data

How the results depend on the processing

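Across 12 other settings, the log2 fold changes of SPRY2, SPRED2, ETV1, ETV4, IL17RD and LIN28A kept their sign. The count of called genes over the whole table, 0 in edgeR, was 139 in DESeq2, 8 with total counts, 40 with every gene of at least 1 count, and 1 and 2 in limma on log2 FPKM with pseudocounts of 1 and 0.1; it was 0 to 1204 without single libraries. Members called were 0 to 1, their median 0.040 to 0.63 and members without overlap 4 to 9 when 1 library was left out, where a group of 1 library overlaps less by construction and 57.4% to 87.4% of all tested genes did not overlap. The log2 fold change of ETV5 turned to −0.0074 with upper quartile factors, −0.11 with total counts, and −0.12 (pseudocount 1, with or without the filter) and −0.13 (0.1) on log2 FPKM; that of SPRED3 to −0.018 (1, with or without the filter) and −0.022 (0.1). Without single libraries the ranges were −0.037 to 0.24 for ETV5, −0.39 to 0.16 for SPRY1, −0.016 to 1.37 for SPRY4 and −0.10 to 1.10 for SPRED1. The cause was not tested. Total counts and log2 FPKM (0.1) shifted the median of all genes to −0.18 and −0.22; relative to that median, over the scalings, filters and tools tried, ETV4 lay between 0.89 and 1.04, SPRY2 between 0.91 and 1.06, SPRED3 between 0.07 and 0.22, ETV5 between −0.036 and 0.097 and IL17RD between −0.43 and −0.31. LIN28A passed the threshold in DESeq2 alone.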
